A study of Drosophila melanogaster with 20 samples.

Results

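The gustatory receptor (Gr) and ionotropic receptor (Ir) genes of Drosophila melanogaster were followed in RNA from fly heads with and without a functional *white* (*w*) gene, which encodes a subunit of the transporter that loads eye pigment precursors. The genes were chosen by name alone, as every symbol that starts with Gr or Ir followed by a number, and 126 of the 17609 genes in the count table fit this rule, 60 of them Gr and 66 Ir genes. Gr genes encode membrane receptors of taste neurons for sugars and bitter compounds, and a pair of them forms the carbon dioxide receptor of the antenna. Ir genes encode relatives of glutamate-gated channels, in which widely shared co-receptors join with tuning receptors that set the response to acids, amines, temperature or humidity. Most of these genes are expressed in small sets of sensory neurons, so a whole head holds few cells that use any one of them.

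Heads came from 4 groups of unmated flies at an age of 1 week: w- females and w+ females, and w- males and w+ males, with 5 samples a group and 10 pooled heads a sample. All flies carried the w1118 background, a loss-of-function line with a partial deletion of *w*, and the w+ flies had received a functional allele from the Harwich line over 10 generations of backcrossing. As *w* is on the X chromosome and red-eyed females were mated to w1118 males in each generation, w- females had 2 mutant copies, w+ females 1 mutant and 1 functional copy, w- males 1 mutant copy and w+ males 1 functional copy. The w+ flies may also carry other Harwich sequence linked to *w*, and the nearest of the Gr and Ir genes, Gr2a, lies 1.34 Mb away.

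Counts assigned to genes totalled 34211100 to 48866963 per sample. The *w* gene itself had 4 to 15 counts in every w- sample and 374 to 688 counts in every w+ sample, as the labels say. Levels are given as CPM, the count scaled to its library total with TMM (a scaling that assumes most genes do not change), and as CPM per kb of exon wherever genes are compared with each other. Of the markers of antennae, 8 genes were measured, and their summed CPM was 1114 to 1369 in w- females, 1085 to 1202 in w+ females, 922 to 1373 in w- males and 1086 to 1257 in w+ males, with the lowest value in w- males 1, the sample with replicate number 1. The 5 markers of fat body other than yolk summed to 7535 to 14535 CPM in w- females, 11129 to 22905 in w+ females, 4093 to 6205 in w- males and 6407 to 10318 in w+ males. The 5 photoreceptor markers, which a head should hold, summed to 40151 to 53978 CPM, and 4 markers of testis and accessory gland, which it should lack, to at most 8.74 CPM in any sample. The highest sums of the latter, 8.74, 4.45 and 3.32 CPM, were in w+ males 4, w- males 4 and w- males 1. Other males had at most 0.214 CPM and females at most 0.538 CPM. In pooled heads, fewer cells of a type and less RNA per cell cannot be told apart.

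Of the 126 receptor genes, 53 reached 10 counts in at least 3 of the 20 samples, or 42.1%, against 11423 genes and 64.9% of the whole table. These 53 were 27 Gr and 26 Ir genes. Another 67 genes never reached 10 counts in any sample, and 10 of those had no count in any of the 20 samples: Gr10a, Gr64b, Gr64c, Gr64d, Ir7b, Ir7d, Ir7e, Ir47b, Ir56c and Ir94g. A count of 0 in a library still allows up to 3 counts, which is 0.0614 CPM in the deepest and 0.0877 CPM in the shallowest library. Lowering the threshold to 5 counts gave 75 genes and raising it to 20 gave 36, while 59 genes reached 10 counts in at least 1 sample and 30 reached it in all 20. On either side of the threshold, Gr2a and Gr58c reached 10 counts in exactly 3 samples, with median counts of 6.5 and 5.0, and Gr22c and Gr98b in exactly 2, with median counts of 5.0 and 3.0.

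Detection differed between the roles of these genes, although the lists of roles were written with earlier results of these data known. All 4 ionotropic co-receptors (Ir8a, Ir25a, Ir76b and Ir93a) and all 13 tuning receptors of the antenna reached the threshold, with median counts over samples of 23.5 to 596.5 and of 7.0 to 925.5. Both genes of the carbon dioxide receptor, Gr21a and Gr63a, did so too, with median counts of 37.0 and 48.5. Of the 5 receptors shared by bitter taste neurons, Gr32a, Gr33a, Gr39a and Gr66a reached it and Gr89a, with at most 5 counts in a sample, did not. Among the remaining genes, 16 of 44 Gr and 9 of 49 Ir genes reached it, and the median gene had 3.0 counts in the Gr group and 1.5 in the Ir group. Ir51a, which the annotation lists as a pseudogene, was among those detected, with 20 to 58 counts a sample.

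**Figure D1:**
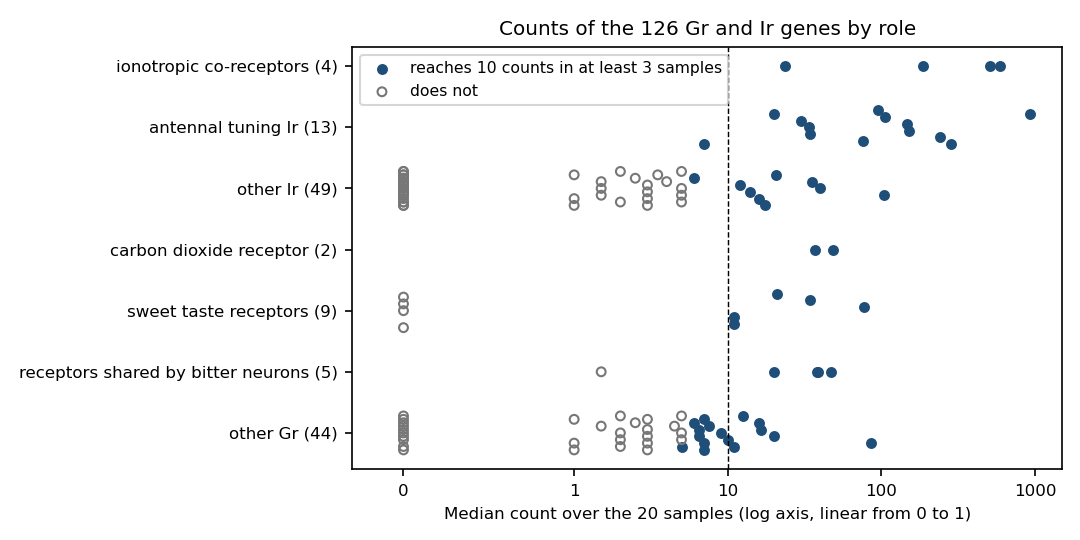
Median count over the 20 samples (x axis, log scale that is linear from 0 to 1) of each of the 126 Gr and Ir genes, 1 point a gene, by role (y axis, number of genes in parentheses). Filled points are the 53 genes that reached 10 counts in at least 3 samples, and the dashed line marks 10 counts: all points of the co-receptors, the antennal tuning receptors and the carbon dioxide receptor are filled, and most points of the groups named other are open.

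Of the 9 sugar receptor genes, Gr5a (a trehalose receptor), Gr43a (a fructose receptor that also senses sugar inside the brain), Gr61a, Gr64a and Gr64f (a co-receptor of the other sugar receptors) reached the threshold. Gr64b and Gr64c had 0 counts in all 20 samples, Gr64d had 0 and Gr64e had at most 1. In the annotation the exons of Gr64b and Gr64c overlap same-strand genes over 100% of their length, those of Gr64d over 97.3% and those of Gr64e over 99.1%, and a read that falls on 2 genes of the same strand is left out of the counts. Their zeros therefore do not measure their RNA. The same holds for Gr10a, whose exons lie 100% within Or10a, and in part for Gr2a and Ir75d, where 75.9% and 90.7% of the exon length is shared and the counts come from the rest.

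Per kb of exon, the 5 highest genes were Ir76a, Ir76b, Ir25a, Ir75a and Ir68a, with medians over the 20 samples of 10.7, 5.85, 4.08, 3.59 and 2.55 CPM per kb. Ir76a (chromosome 3L, 19799278 to 19803427) is the tuning receptor for phenylethylamine in the antenna and Ir76b (3L, 20108484 to 20111534) and Ir25a (2L, 4830846 to 4835300) are co-receptors that work with it, among others. Ir75a responds to acetic acid and Ir68a takes part in sensing moist air. The order of Ir76a, Ir76b and Ir25a was the same in the means of all 4 groups. Below them, Ir75a had 3.71 ± 0.55 CPM per kb in w- females (SD, n = 5), against 4.45 ± 0.11 for Ir25a in the same samples. Ir8a, the co-receptor of acid-sensing tuning receptors, had a median of 1.68 CPM per kb, and Ir93a, the co-receptor for temperature and humidity, had 0.225 CPM per kb.

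The tuning receptors spread widely around their co-receptors. Ir31a had a median of 1.69 CPM per kb, Ir64a, an acid receptor of the sacculus inside the antenna, 1.42, and Ir75b, another acid receptor, 1.41. Ir40a and Ir21a, which sense dry air and cooling, had 0.815 and 0.736 CPM per kb, and Ir84a, a receptor for aromatic food odors, had 0.486. Ir75c, Ir92a and Ir41a followed at 0.460, 0.371 and 0.204. Thus the receptors that work with Ir93a, namely Ir21a, Ir40a and Ir68a, all had higher medians per kb than Ir93a itself. Ir62a, which is on neither list and was picked out after its values were seen, was the highest of the other Ir genes at 1.39 CPM per kb. By chromosome, 4 of the 24 Ir genes on 2R and 2 of the 11 on the X reached the threshold, against 9 of 13 on 3L, 7 of 14 on 3R and 4 of 4 on 2L.

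Gr genes lay lower. Gr64f led them with a median of 1.34 CPM per kb and rank 11 of the 126, followed by Gr63a at 0.868, Gr32a at 0.759, Gr66a at 0.623, Gr33a at 0.583 and Gr28b at 0.525 CPM per kb. Gr28b has isoforms that sense temperature and light. Exon length was merged over all transcripts of a gene: 4264 bp over 5 transcripts for Gr28b, against 1446 bp and 1 transcript for Gr64f. The rank of Gr28b per kb depends on that length, as its median count was 85.0, against 77.0 for Gr64f. Gr28a, the neighbour of Gr28b, had at most 2 counts in a sample. Summed over all members, Ir genes took 87.6 to 98.6 CPM in w- females, 81.5 to 93.8 in w+ females, 87.5 to 104.9 in w- males and 100.1 to 105.3 in w+ males. Gr genes took 14.3 to 18.5 CPM in w- females, 15.5 to 19.0 in w+ females, 14.8 to 19.6 in w- males and 17.5 to 20.8 in w+ males.

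**Figure D2:**
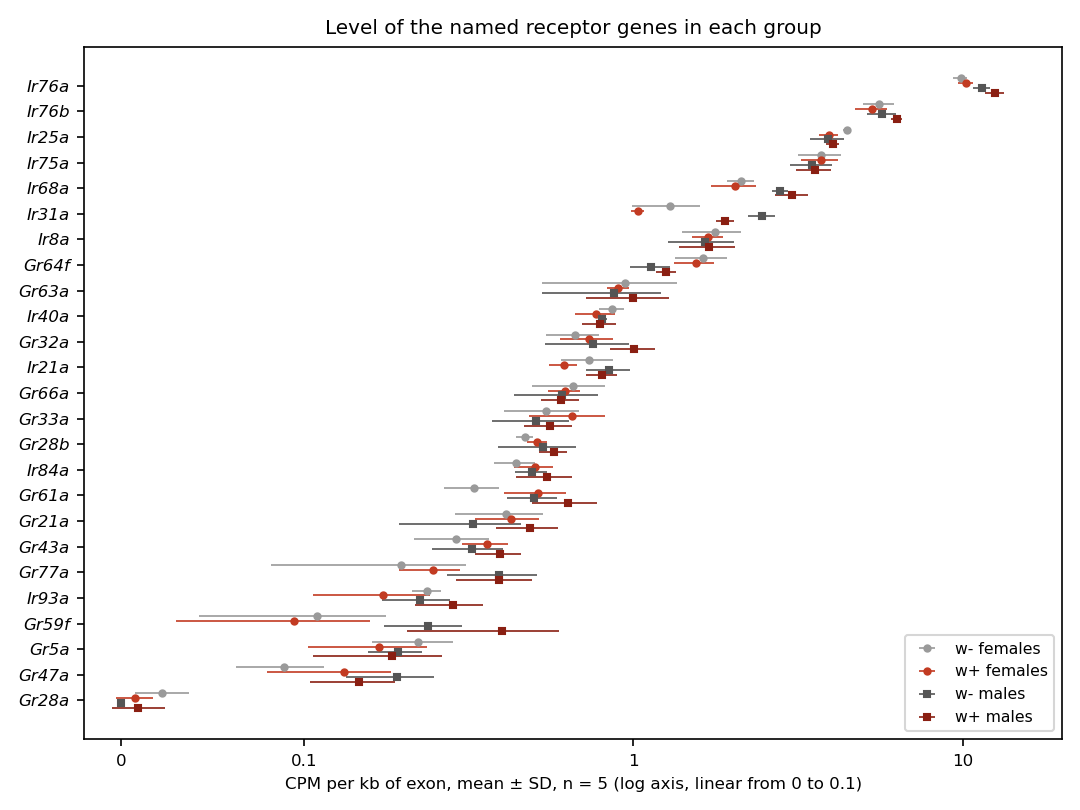
Mean level ± SD (n = 5) in CPM per kb of exon (x axis, log scale that is linear from 0 to 0.1) of the 25 receptor genes named by rule, ordered by their median over the 20 samples (y axis), in w- females, w+ females, w- males and w+ males. Ir76a leads in all 4 groups, Gr28a is near 0, and for Ir31a, Ir68a and Gr59f the males lie to the right of the females.

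The comparison of w- with w+ heads asks whether loss of *w* changes gene expression in the head, and it was tested within each sex with edgeR over all genes kept, with a gene called DE at an adjusted p under 0.05. In males, 51 of the receptor genes were tested and 1 was DE, against 12.7% of the 11187 genes tested. That gene was Ir31a, a tuning receptor of acid-sensing neurons in the antenna (2L, 10405565 to 10408197). It had 5.26, 5.50, 6.17, 5.97 and 4.91 CPM in w- males, against 4.12, 3.99, 4.34, 4.37 and 4.70 CPM in w+ males. All 5 w- samples were above all 5 w+ samples. The log2 fold change was 0.36 ± 0.08 (SE), with an adjusted p of 0.0264 by edgeR. The call was lost with DESeq2, where the adjusted p was 0.129 at a log2 fold change of 0.37, and with replicate 1, 2, 3 or 4 left out, where the adjusted p lay between 0.0556 and 0.0874.

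The other 50 genes did not pass the test in males. Without adjustment, 7 genes had a p under 0.05, or 13.7%, against 26.5% of all genes tested: Ir31a and Gr64a with higher values in w- males and Gr21a, Gr22b, Gr32a, Ir76a and Ir76b with lower ones. Gr22b reached 10 counts in 0 of the w- males and 3 of the w+ males, and so was tested only through the group in which it was higher. Gr21a, which with Gr63a forms the carbon dioxide receptor, had 0.409, 0.671, 1.20, 0.688 and 0.643 CPM in w- males, against 0.964, 0.946, 1.49, 1.00 and 0.992 CPM in w+ males. Replicate 3 was the highest in each group, and with its 1.20 CPM it was the only w- sample within the range of the w+ samples. The log2 fold change was -0.63 ± 0.18 (SE) with an adjusted p of 0.0590 by edgeR, and it passed at 0.0379 when only genes with 10 counts in every sample were tested. Gr63a had a log2 fold change of -0.25 ± 0.30 (SE) and an adjusted p of 0.667. The 4 co-receptors had log2 fold changes from -0.33 ± 0.19 for Ir93a to -0.06 ± 0.21 for Ir8a, none of which passed by edgeR, and Ir76b alone had an unadjusted p under 0.05. The median log2 fold change was -0.10 over the 51 genes and 0.00 over all genes tested, and 16 of the 51 values were above 0, against 50.3% of all genes. The 3 fat body markers tested had a median log2 fold change of -0.625 in males, with 1 of them DE and lower in w- males. Of the 5 photoreceptor markers 2 were DE and higher in w- males, while the 5 neuron markers, all above 0 at a median of 0.09, and the 8 antennal markers, 4 above 0 at a median of 0.00, held no DE gene by edgeR, with 0 of 5 and 1 of 8 at an unadjusted p under 0.05. The part of these markers in the values was not tested.

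In females, 41 receptor genes were tested and 0 were DE by edgeR, against 9.23% of the 10762 genes tested. DESeq2 also called 0, and 3 genes had an unadjusted p under 0.05 by edgeR, or 7.32%, against 32.1% of all genes. The smallest p belonged to Ir25a, the co-receptor shared by amine, temperature and humidity receptors. It had 15.4, 15.8, 16.0, 16.3 and 16.4 CPM in w- females, against 14.4, 12.8, 13.5, 14.3 and 15.3 CPM in w+ females. The groups did not overlap, and the log2 fold change was 0.19 ± 0.05 (SE) with an adjusted p of 0.0561 by edgeR. It passed with library size as the only scaling, at an adjusted p of 0.0252, and when genes with 10 counts in every sample were tested, at 0.0486. Library size alone also moved the median of all genes to 0.14 in this comparison.

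The other 2 genes were a sugar receptor and a taste receptor for fatty acids. Gr61a had 0.609, 0.611, 0.768, 0.646 and 0.438 CPM in w- females, against 0.840, 1.22, 0.993, 0.684 and 1.08 CPM in w+ females. Only the lowest w+ sample lay within the range of the w- samples. Its log2 fold change was -0.64 ± 0.21 (SE) with an adjusted p of 0.0953 by edgeR. Ir56d had 0.432, 0.356, 0.427, 0.377 and 0.525 CPM in w- females, against 0.352, 0.259, 0.271, 0.195 and 0.162 CPM in w+ females. These groups did not overlap, and the log2 fold change was 0.77 ± 0.26 (SE) with an adjusted p of 0.0988 by edgeR. By family, 18 of 24 Ir genes and 3 of 17 Gr genes had values above 0 in w- females, with medians of 0.17 and -0.14 on the log2 scale, beside 48.9% of all genes. None of the 24 Ir genes passed. Of the 8 antennal markers, 6 had values above 0, with a median of 0.10, and 1 was DE, Obp28a at 0.26 ± 0.04 (SE) with an adjusted p of 0.0215 by edgeR. The 4 fat body markers tested had a median of -0.52 and 0 were DE by edgeR, with 3 at an unadjusted p under 0.05. Their part in these values was not tested.

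**Figure D3:**
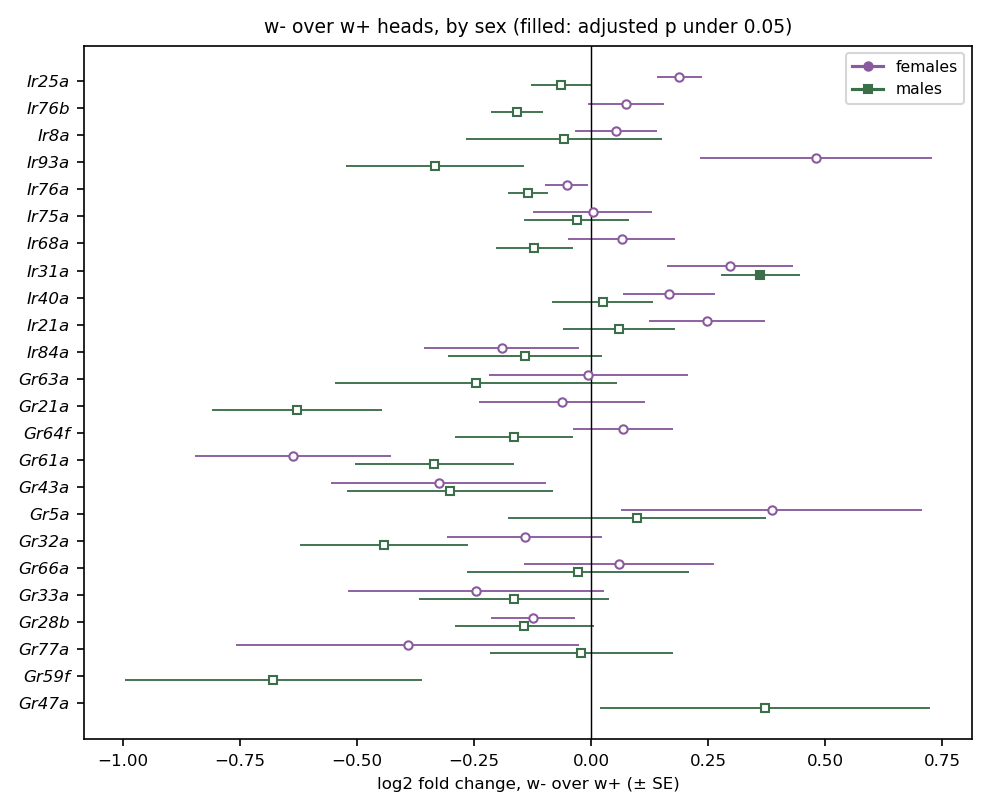
log2 fold change of w- over w+ heads ± SE (x axis, edgeR) for the named receptor genes tested (y axis), in females (circles) and males (squares), with filled symbols for an adjusted p under 0.05. The only filled symbol is Ir31a in males, at 0.36, and its value in females was 0.30.

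The w- effect did not differ detectably between the sexes for any of these genes. At low counts this test had limited power: in simulated data with a log2 change of 1, it recovered 9 of 33 changed genes under 100 counts. In a single fit of the 20 samples, the difference of the effect in females from that in males was tested for 53 receptor genes, and 0 were DE by edgeR, beside 0.0263% of 11423 genes. DESeq2 also called 0, and 6 genes had an unadjusted p under 0.05 by edgeR, or 11.3%, beside 6.03% of all genes: Ir25a, Ir76b, Ir93a, Ir56d, Gr21a and Gr64a. Of these, 3 are co-receptors. The difference was 0.24 ± 0.09 (SE) for Ir25a, 0.23 ± 0.10 for Ir76b and 0.81 ± 0.31 for Ir93a on the log2 scale, with adjusted p of 0.732, 0.808 and 0.769 by edgeR. For Ir31a it was -0.07 ± 0.16 (SE): its effect was 0.30 ± 0.13 in females and 0.36 ± 0.08 in males. In w- males 1, the summed CPM of the 4 co-receptors was 26.0, the lowest of the 20 samples, as was its antennal marker sum, and the other w- males had 32.9 to 35.9.

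Females and males were compared within each eye color. The receptor genes that passed were mostly lower in females, but at each eye color a smaller share of them was called lower than of all genes. In w- flies, 8 of the 53 genes tested were DE, 2 higher and 6 lower in females, beside 35.4% of all 11423 genes tested, 18.6% higher and 16.7% lower. In w+ flies, 7 of the 53 were DE, all lower in females, beside 35.5% of all genes, 19.7% higher and 15.8% lower. None was called higher in w+ females by this fit or by DESeq2, while the fit with the replicate number as a block added Gr64f, and of the 12 genes with an unadjusted p under 0.05 by edgeR only Gr64f was higher. Both shares called in either direction are smaller than those of all genes, which were not matched to the receptor genes in count level. The filter kept a gene if any 3 samples reached 10 counts, and a gene high in only 1 sex could enter through that sex. This was so for Gr59f, which reached 10 counts in 1 of 5 samples of each female group, 4 of w- males and 5 of w+ males, and for Gr47a, which reached it in 0 samples of either female group, 3 of w- males and 1 of w+ males. When every gene with at least 1 count was tested, Gr59f was still called in w+ flies and Gr47a in w- flies. In w- flies that filter also called Gr28a and Ir52c, which had at most 2 and 3 counts in a sample. The 2 comparisons share no samples but come from a single fit with a single estimate of the spread.

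**Figure D4:**
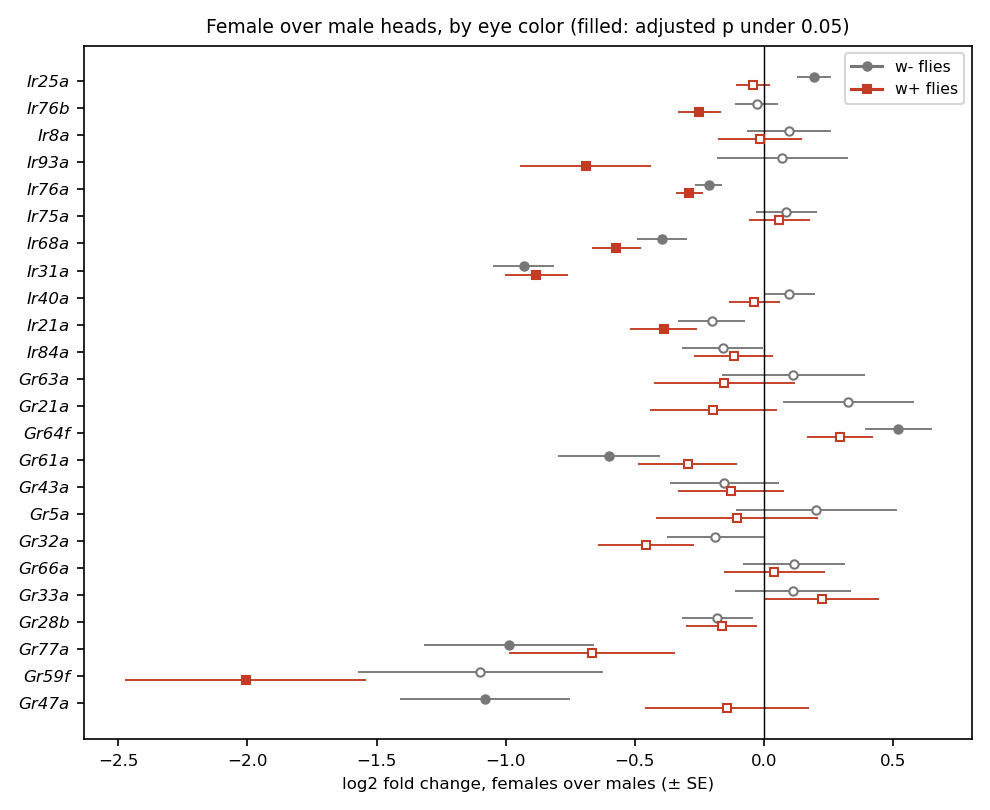
log2 fold change of female over male heads ± SE (x axis, edgeR) for the named receptor genes (y axis), in w- flies (circles) and w+ flies (squares), with filled symbols for an adjusted p under 0.05. Ir31a, Ir68a and Ir76a are filled and left of 0 for both eye colors, while Gr64f and Ir25a are filled and right of 0 for w- flies.

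Ir31a, Ir68a and Ir76a were lower in females at both eye colors, and these calls held in all 11 alternative fits of each comparison. Ir31a had 2.08, 2.32, 3.36, 3.20 and 3.65 CPM in w- females, against the 4.91 to 6.17 CPM of w- males given above. It had 2.33, 2.25, 2.39, 2.21 and 2.48 CPM in w+ females, against 3.99 to 4.70 CPM in w+ males. Every female sample was below every male sample of its eye color. The log2 fold change was -0.93 ± 0.12 in w- flies and -0.88 ± 0.12 in w+ flies (SE), with adjusted p of 8.82e-06 and 2.08e-05 by edgeR.

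Ir68a (3L, 11232972 to 11236218), the moist air receptor, had 5.43, 4.66, 5.32, 5.79 and 4.73 CPM in w- females, against 7.00, 6.41, 7.24, 6.44 and 7.01 CPM in w- males. In w+ flies it had 4.58, 4.35, 5.53, 4.40 and 6.07 CPM in females, against 6.64, 7.19, 6.97, 8.80 and 7.48 CPM in males. Neither pair of groups overlapped. The log2 fold change was -0.40 ± 0.10 in w- flies and -0.57 ± 0.10 in w+ flies (SE), with adjusted p of 0.00347 and 1.59e-04 by edgeR.

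Ir76a, the phenylethylamine receptor and the highest of these genes per kb, had 21.1, 21.1, 21.6, 21.0 and 19.0 CPM in w- females, against 24.3, 25.0, 25.5, 23.7 and 21.9 CPM in w- males. It had 22.5, 22.7, 21.5, 19.9 and 21.2 CPM in w+ females, against 28.7, 27.2, 26.3, 24.9 and 24.5 CPM in w+ males. All female samples were below all male samples of the same eye color, by a small margin in w- flies. The log2 fold change was -0.21 ± 0.05 in w- flies and -0.29 ± 0.05 in w+ flies (SE), with adjusted p of 0.00363 and 2.99e-04 by edgeR.

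Several genes passed at 1 eye color. In w+ flies these were the co-receptors Ir76b and Ir93a, the cool receptor Ir21a and Gr59f, all lower in females. Gr59f had 0.108, 0.155, 0.226, 0.0326 and 0.0539 CPM in w+ females, against 0.284, 0.406, 0.647, 0.819 and 0.287 CPM in w+ males. The groups did not overlap, although the gene had only 1 to 36 counts a sample and was tested through its counts in males. Its log2 fold change was -2.01 ± 0.47 (SE) with an adjusted p of 0.00262 by edgeR, and in w- flies it was -1.10 ± 0.47 with an adjusted p of 0.0790. Ir76b, Ir21a and Ir93a differed less from the spread, at -0.25 ± 0.08, -0.39 ± 0.13 and -0.69 ± 0.25 (SE) in w+ flies, with adjusted p of 0.0248, 0.0257 and 0.0409 by edgeR. The Ir93a call was lost with any replicate left out, at adjusted p of 0.0528 to 0.134, and its lowest sample, w+ females 4, had 5 counts. The Ir21a call was lost without replicate 2, 3, 4 or 5, at 0.0502 to 0.0956, and the Ir76b call without replicate 3 or 4, at 0.0850 and 0.129.

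In w- flies, 5 other genes passed. Gr64f (3L, 4035799 to 4037575), the sugar co-receptor, was higher in females: it had 2.77, 1.83, 2.13, 2.23 and 2.80 CPM in w- females, against 1.56, 1.48, 1.97, 1.43 and 1.76 CPM in w- males. The groups overlapped in 1 sample of each sex. Its log2 fold change was 0.52 ± 0.13 (SE) with an adjusted p of 0.00384 by edgeR, and in w+ flies it was 0.30 ± 0.13 with an adjusted p of 0.0771, which passed at 0.0436 with the replicate number as a block. Ir25a was higher in w- females, with the values given above, than in w- males, which had 11.1, 15.2, 14.5, 14.6 and 14.4 CPM. The groups did not overlap, the log2 fold change was 0.19 ± 0.07 (SE) and the adjusted p was 0.0298 by edgeR. This call was lost without replicate 1, 3, 4 or 5, at adjusted p of 0.0620 to 0.0757, and without replicate 1, which removes the low male sample, the value was 0.14. In w+ flies Ir25a had a log2 fold change of -0.04 ± 0.07.

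Gr61a, Gr47a and Gr77a were lower in w- females than in w- males. Gr61a had 1.07, 0.832, 0.749, 1.13 and 0.882 CPM in w- males, beside the 0.438 to 0.768 CPM of w- females, and the groups overlapped in 1 sample of each sex. Its log2 fold change was -0.60 ± 0.20 (SE) with an adjusted p of 0.0232 by edgeR, and its call was lost without replicate 1, 4 or 5, at 0.0790 to 0.107. Gr47a, with 2 to 12 counts a sample and tested only through males, had a log2 fold change of -1.08 ± 0.33 and an adjusted p of 0.0152 by edgeR, lost without replicate 1 or 5, at 0.0859 and 0.0724. Gr77a, with 5 to 33 counts a sample, had -0.99 ± 0.33 and 0.0249 by edgeR, lost without replicate 1, 2 or 5, at 0.0685 to 0.164. Thus 2 sugar receptors, Gr64f and Gr61a, went in opposite directions in w- flies, and the other 3 tested, Gr5a, Gr43a and Gr64a, had values of 0.20 ± 0.31, -0.15 ± 0.21 and -0.49 ± 0.31 that did not pass.

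**Figure D5:**
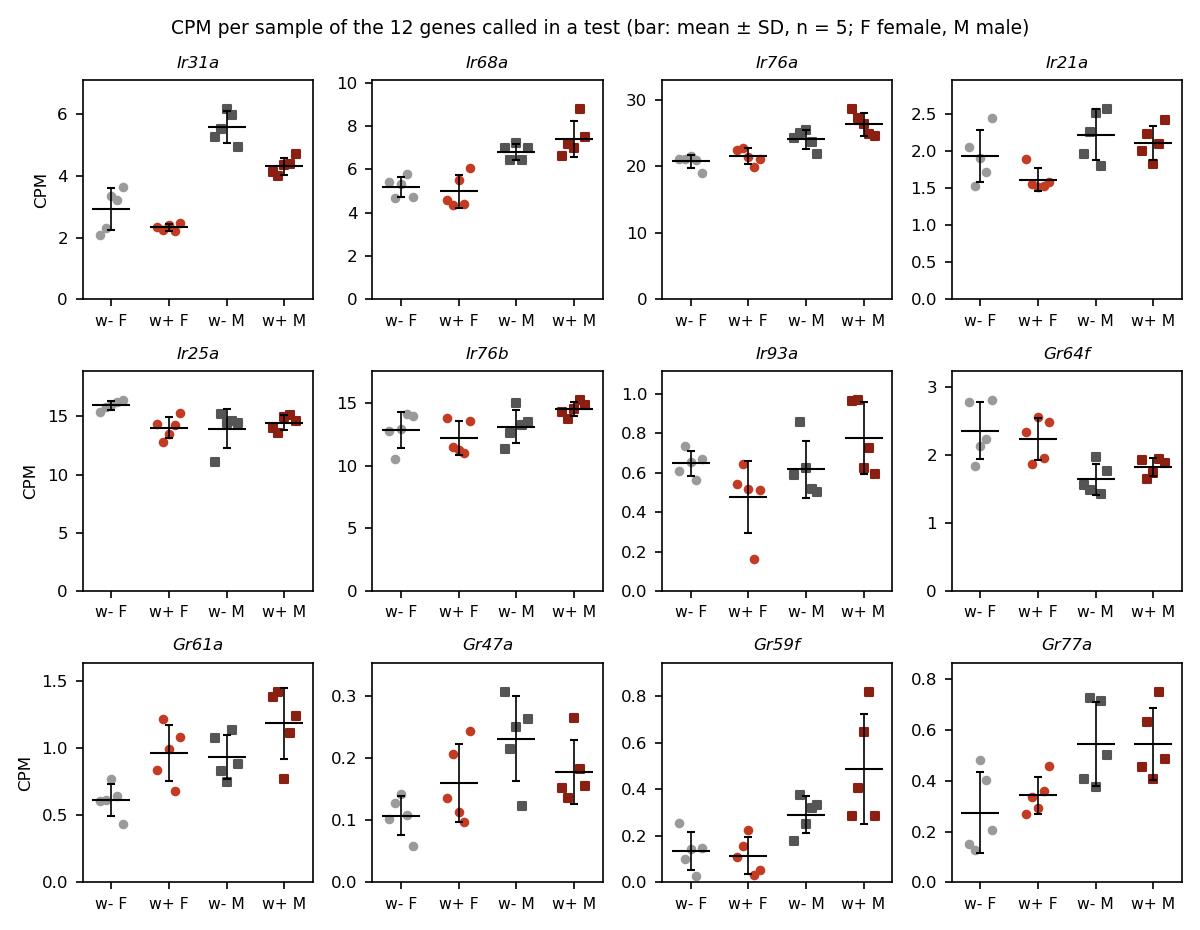
CPM of each sample (y axis, from 0) for the 12 receptor genes called in at least 1 of the 5 tests, in w- females, w+ females, w- males and w+ males (x axis, F female and M male), with the mean ± SD (n = 5) as bars. Females lie below males at both eye colors for Ir31a, Ir68a and Ir76a, the Ir31a points of w- males lie above those of w+ males, and w- males 1 is the low point of Ir25a.

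The difference between the sexes did not itself differ detectably with eye color for the genes called at 1 eye color, since this is the same interaction as above, in which 0 of 53 genes passed. The value with the smallest unadjusted p among them was that of Ir25a, whose female to male difference was 0.19 in w- flies and -0.04 in w+ flies. The interaction for Ir93a had an adjusted p of 0.769 by edgeR and that for Gr59f 0.894. Of the 53 genes, 33 had the same sign in both comparisons.

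By role, 3 of the 13 tuning receptors of the antenna were DE between the sexes in w- flies and 4 of 13 in w+ flies, all lower in females. Of all genes, 16.7% were called lower in females in w- flies and 15.8% in w+ flies. In either direction, 35.4% and 35.5% of all genes were called. Of the 5 sugar receptors tested, 2 were DE in w- flies and 0 in w+ flies by edgeR, with 1 of the 5 at an unadjusted p under 0.05 in w+ flies. Ir40a, a receptor for dry air, had log2 fold changes of 0.10 ± 0.10 in w- flies and -0.04 ± 0.10 in w+ flies (SE). Ir84a, which also acts in male courtship, had -0.16 ± 0.16 in w- flies and -0.12 ± 0.15 in w+ flies, and Ir75a had 0.09 ± 0.12 in w- flies and 0.06 ± 0.12 in w+ flies. Of the 4 co-receptors, 1 was DE in w- flies and 2 in w+ flies. Neither gene of the carbon dioxide receptor passed at either eye color, nor did any of the 4 tested receptors of bitter neurons, of which Gr32a had -0.46 ± 0.19 in w+ flies with an adjusted p of 0.0610 by edgeR. Gr66a, the marker of bitter neurons, had 0.12 ± 0.20 in w- flies and 0.04 ± 0.20 in w+ flies, and Gr33a had 0.11 ± 0.22 in w- flies and 0.22 ± 0.22 in w+ flies. The remaining Gr genes held 2 calls of 16 in w- flies and 1 of 16 in w+ flies, and the 9 remaining Ir genes none in either by edgeR, with 0 of 9 in w- flies and 1 of 9 in w+ flies at an unadjusted p under 0.05. DESeq2 called the 7 genes of the w+ comparison plus Gr22f, and the same 8 genes as edgeR in the w- comparison.

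The scaling bears on these sex differences. With library size alone, the median log2 fold change of all genes was -0.26 in w+ flies and -0.18 in w- flies, against 0.00 and -0.02 with TMM, and 10.0% and 18.2% of the called genes of the whole table were higher in females, against 55.6% and 52.6%. Of the 53 receptor genes, 18 were then called lower and 0 higher in w+ flies, and 11 lower and 0 higher in w- flies. Of all 11423 genes, 6440 were then called lower and 719 higher in w+ flies, and 4718 lower and 1050 higher in w- flies. In w- flies Ir25a and Gr64f, at adjusted p of 0.815 and 0.0557 by edgeR, no longer passed. The 4 fat body markers tested were higher in females in both comparisons, at median log2 fold changes of 1.62 in w- flies and 1.33 in w+ flies, and 3 of the 5 neuron markers were lower in w- females and 4 of the 5 in w+ females, at medians of -0.18 and -0.19. Of the 5 photoreceptor markers, all had values below 0 in w- flies, at a median of -0.20 and with 3 DE, and none was DE by edgeR in w+ flies, where the median was -0.01 and 2 had an unadjusted p under 0.05. Their part in the receptor genes' differences was not tested. Of the 8 antennal markers tested, 2 were higher and 2 lower in w- females and 2 higher and 3 lower in w+ females.

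Other genes of taste and smell neurons, outside the Gr and Ir families, gave a mixed picture as well. Of a list of 17, among them the odorant co-receptor gene Orco, 15 were tested in males and 1 was DE between w- and w+ heads: Tmc, a channel for food texture, with a log2 fold change of 0.39 ± 0.08 (SE) and an adjusted p of 0.0155 by edgeR, beside 12.7% of all genes tested. In females 16 were tested and 0 were DE by edgeR, with 2 at an unadjusted p under 0.05, or 12.5%, beside 32.1% of all genes. Between the sexes, 3 of the 16 tested were higher and 5 lower in females at each eye color, beside 18.6% higher and 16.7% lower of all genes in w- flies and 19.7% and 15.8% in w+ flies. The higher ones were Tmc, pain and ppk19, of which ppk19 did not pass the filter within males and was tested through its counts in females, and the lower ones were Snmp1, a membrane protein of pheromone-sensing neurons, the channel genes TrpA1 and OtopLa, and norpA and Galphaq, which the eye also expresses.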

How the data were processed

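RNA of pooled heads was measured in 20 samples, which their labels put in 4 groups of 5 by sex and eye color. The authors trimmed reads with Trim Galore 0.6.1, aligned them with STAR to a FlyBase release of the genome and deposited raw counts per gene as whole numbers, taken on 1 strand, in which a read on more than 1 gene of that strand is not counted. They also deposited a normalized signal for each sex, the counts divided by a size factor per sample, which was read only to check columns and symbols. The count table holds gene IDs, and symbols came from a FlyBase gene name table, in which 13 IDs had none. Positions and exon lengths came from the Ensembl annotation BDGP6.54, of the same assembly.

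Genes that reached 10 counts in 3 or more samples (for the tests within a sex, also in 3 or more of its own 10) were tested with edgeR 4.0.16 (TMM, robust quasi-likelihood test) in R 4.3.3. The tests within a sex had the replicate number as a block, after the study's code. The sex comparisons came from a fit of 4 group means, and the interaction had 10 blocks of sex and number. P-values were adjusted by Benjamini-Hochberg over all genes tested and measure the spread between pools of 10 heads. The SE of a log2 fold change is its size over the square root of F. DESeq2 1.42.0 was an alternative, beside other scalings, filters, blocks and leaving out each replicate number, and the steps were tested on simulated data. The named genes were those DE in a test, 17 receptors fixed by role and the 5 highest per kb. The receptor genes were taken by symbol, but this group of genes, the lists and the roles were chosen with earlier results of these data known.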

Additional observations from a re-analysis of the deposited data

Results flagged for a closer look

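In 12 of the 132 groups of 5 samples examined for the named genes and for the sums over roles, 1 sample stood apart from the other 4 (Dixon's test), where chance alone gives about 1 in 20 groups. Replicate 5 of the w- females held 5 of the 12: Gr63a at 2.45 CPM, against 0.882 to 1.25 CPM in the other 4, the sum of the 2 carbon dioxide receptor genes at 3.79 CPM, against 1.80 to 2.07, Ir8a at 6.74 CPM, against 4.25 to 4.71, Gr33a at 0.496 CPM, against 0.942 to 1.08, and Ir76a at 19.0 CPM, against 21.0 to 21.6. The carbon dioxide receptor sum includes Gr63a, and other sums also contain named genes, so the 132 groups are not independent. The sum of the bitter neuron receptors was 4.23 CPM in replicate 4 of the w- females, against 3.13 to 3.44. In w- males, Ir25a had 11.1 CPM in replicate 1, against 14.4 to 15.2 in the other 4, and Gr43a had 0.699 CPM in replicate 3, against 0.405 to 0.485. In w+ females, Ir21a had 1.90 CPM in replicate 1, against 1.51 to 1.59, and Ir93a had 0.163 CPM in replicate 4, against 0.512 to 0.647. In w+ males, Gr21a had 1.49 CPM in replicate 3, against 0.946 to 1.00, and Ir84a had 0.698 CPM in replicate 2, against 1.10 to 1.17.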

How the results depend on the processing

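With 5 pools a group and medians of under 50 counts for most Gr genes, small differences were not detectable at this depth. The interaction test could also miss larger ones. In simulated data with a log2 change of 1, it recovered 9 of 33 changed genes under 100 counts. The tests within a sex recovered 30 of 37 in males and 27 of 33 in females. In the simulated data every gene had the same spread, and the changed genes had mean counts of at least 10. Recovery at lower counts or at a larger spread was not measured. Ir31a, Ir68a and Ir76a were lower in females at both eye colors in all 11 alternative fits of each comparison. Elsewhere the counts of receptor genes called moved with the settings, and the causes were not tested. Between w- and w+ males, 1 gene became 2 without the replicate block (Gr22b added, which only w+ males brought past the filter) and 2 with genes that have 10 counts in every sample (Gr21a added), 0 with DESeq2, and 0 to 1 with a replicate left out. Between w- and w+ females, 0 became 2 with library size alone (Ir25a and Ir56d), 1 with 10 counts in every sample (Ir25a), and remained 0 with any replicate left out and without the replicate block. The interaction gave 0 in every fit, also without the replicate block. In w+ flies the sexes differed in 7 receptor genes, in 18 with library size alone, in 8 with the replicate block and in 4 to 8 with a replicate left out. Over all genes these counts were 4059, 7159, 4299 and 2748 to 4157. In w- flies it was 8 receptor genes, 11 with library size alone, 9 with the replicate block and 4 to 7 with a replicate left out. Over all genes these counts were 4040, 5768, 4405 and 2979 to 3768. Testing every gene with at least 1 count gave 10 receptor genes in w- flies, with Gr28a and Ir52c added, beside 3755 of 16001 genes. Of the receptor genes, 30 in place of 53 reached 10 counts when all 20 samples had to. The mean summed CPM of the 126 genes was 93.2 in w+ females, 125.7 in w- males and 129.3 in w+ males with library size alone, against 105.0, 114.7 and 121.7 with TMM.

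The replicate numbers share no stated origin. Samples of a number deviated together in males, at a mean correlation of 0.294 between w- and w+ samples (-0.409 to 0.737, 4 of 5 over 0.1), but not in females, at -0.0825 (2 of 5 over 0.1). Between w- females and w- males the mean was 0.226 (4 of 5 over 0.1), and the block, which the fit of that comparison leaves out, added Gr98a. Between w+ females and w+ males it was 0.0301 (2 of 5 over 0.1). Over all receptor genes tested, values above 0 went from 25 to 10 of 53 between w- females and w- males with library size alone. They went from 21 to 30 of 41 between w- and w+ females and from 16 to 22 of 51 between w- and w+ males. Sign changes of single genes were examined only for genes DE in a test or with an unadjusted p under 0.05 by edgeR. Log2 fold changes that changed sign among these were all small. With library size alone, Gr77a between w- and w+ males was 0.0291, Ir76a between w- and w+ females 0.0879, the Ir31a interaction 0.0230 and Ir93a between w- females and w- males -0.0945. With a replicate left out, the lowest and highest values were -0.0377 and 0.125 for Ir21a between w- and w+ males, -0.0791 and 0.0057 for Gr77a between w- and w+ males, -0.0044 and 0.124 for Ir76b between w- and w+ females, -0.0263 and 0.173 for Ir68a between w- and w+ females, -0.215 and 0.0346 for Ir31a in the interaction, -0.0093 and 0.165 for Ir93a between w- females and w- males, and -0.0709 and 0.0232 for Ir76b between w- females and w- males. Over all genes, the calls between w- and w+ males were 714 to 1526 with a replicate left out, against 1421. Between w- and w+ females they were 82 to 1121, against 993, with 659 without the replicate block, 2215 with library size alone and 1715 with DESeq2. The interaction gave 3 genes, 18 with DESeq2 and 0 to 5 with a replicate left out. Between w+ females and w+ males there were 4059, and 7159 with library size alone.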
